A study of Mus musculus with 14 samples.

Results

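The 10 genes described here are Sox transcription factor genes of 3 subgroups, namely Sox1, Sox2, Sox3 and Sox14 of SoxB, Sox8, Sox9 and Sox10 of SoxE, and Sox7, Sox17 and Sox18 of SoxF. Their lines were looked up by symbol in lists of regions whose chromatin accessibility the authors called higher or lower between groups. At least 1 region was listed for 8 of the 10, against 5866 of 21900 protein-coding genes in the reference table. Of the other 10 genes of the family, counting Sry, 2 had a region. The 10 genes were chosen with earlier results of these data known. Their shares beside those of all genes, here and below, are thus a description and no evidence of an excess. Sox8 and Sox10 had no line in any list. The assay was ATAC-seq, which marks open chromatin by where the Tn5 transposase can cut it, on 500 sorted erythro-myeloid progenitors per sample, yolk sac cells from which red and myeloid cells form, from C57BL/6 embryos at E10.5. All embryos carried Ezh2 fl/fl, the floxed gene of the catalytic subunit of Polycomb repressive complex 2. The 5 Tie2 KO samples also carried Tie2-Cre (Tg/+), a transgene under control of an endothelial receptor gene that acts in endothelium and in blood cells descended from it. The 3 Vav KO samples carried Vav-Cre (Tg/+), active in blood cells, and the 3 Tie2 WT samples carried no Tie2-Cre (+/+). A further 3 Vav WT samples are named by no list, so Vav KO was compared with a control of the other Cre line, and line and genotype cannot be told apart there.

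Sox proteins bind the minor groove of DNA through an HMG box and bend it. The SoxB factors Sox1, Sox2 and Sox3 are activators that keep neural progenitors of the early embryo undifferentiated, while Sox14 is a repressor that counters them. SoxE factors act in neural crest, glia, gonad and cartilage, and SoxF factors in endothelium, where they act in arterial and lymphatic vessel formation. Many genes of this family are held silent outside their own tissue by Polycomb complexes, which in mammals gather at CpG-rich DNA.

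Promoter sequence from RefSeq (GRCm38.p6, the same assembly as mm10) matched 4 of the 10 genes by symbol, Sox1, Sox2, Sox14 and Sox8, and is shown because the higher regions of the first 3 genes lay over it. The 250 bases before the gene start are printed 5′ to 3′ on the gene's strand, with each CpG dinucleotide in capitals. They lie at chr8:12395269-12395518 (+ strand) for Sox1, chr3:34649745-34649994 (+ strand) for Sox2, chr9:99876171-99876420 (- strand) for Sox14 and chr17:25570687-25570936 (- strand) for Sox8.
Sox1: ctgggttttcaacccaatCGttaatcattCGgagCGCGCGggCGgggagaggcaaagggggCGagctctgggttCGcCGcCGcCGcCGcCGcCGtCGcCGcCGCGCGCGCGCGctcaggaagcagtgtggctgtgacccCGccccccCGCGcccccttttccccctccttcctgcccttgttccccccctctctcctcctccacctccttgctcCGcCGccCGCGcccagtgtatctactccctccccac
Sox2: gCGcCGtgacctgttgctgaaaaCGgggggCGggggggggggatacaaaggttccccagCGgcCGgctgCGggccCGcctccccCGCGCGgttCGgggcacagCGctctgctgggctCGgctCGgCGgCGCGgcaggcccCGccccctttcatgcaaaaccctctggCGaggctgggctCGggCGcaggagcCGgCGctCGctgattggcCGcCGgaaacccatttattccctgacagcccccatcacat
Sox14: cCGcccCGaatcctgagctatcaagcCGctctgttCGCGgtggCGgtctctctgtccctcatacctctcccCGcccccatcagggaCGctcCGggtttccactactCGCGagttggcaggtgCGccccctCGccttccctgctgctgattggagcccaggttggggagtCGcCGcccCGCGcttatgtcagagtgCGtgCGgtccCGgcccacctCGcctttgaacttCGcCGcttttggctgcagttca
Sox8: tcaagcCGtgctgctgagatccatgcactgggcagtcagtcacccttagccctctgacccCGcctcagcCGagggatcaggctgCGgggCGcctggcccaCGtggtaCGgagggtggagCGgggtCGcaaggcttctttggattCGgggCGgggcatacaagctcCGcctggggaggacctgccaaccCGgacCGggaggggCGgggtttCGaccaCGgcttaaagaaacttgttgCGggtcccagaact
These stretches hold 29, 27, 23 and 18 CpG dinucleotides in the order printed. The whole RefSeq window, which adds 50 bases after the start, lay inside a higher region of Tie2 KO against Tie2 WT over all 300 bases for Sox1, Sox2 and Sox14. For Sox8 no region of any list reached it.

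The first comparison asks how chromatin near these genes differs between samples with Tie2-Cre, meant to delete Ezh2, and samples without it. Presence of the transgene and loss of Ezh2 cannot be told apart in it. Tie2 KO had higher regions than Tie2 WT at 6 of the 10 Sox genes (60%) and lower regions at 0 of them, while 11.5% of protein-coding genes had a higher and 2.51% a lower region. The 6 genes were Sox1, Sox2, Sox14, Sox9, Sox7 and Sox18, with 8 regions in all. In the authors' deposited table, the log2 fold changes of these regions ran from 0.71 to 1.40 with a median of 0.93, beside a median of 1.02 over all 2959 higher regions. The median of the Sox regions was thus close to that of the list. The largest adjusted p among them was 0.000592 by the authors' deposited table. The lists hold no value per sample, so replicate spread cannot be given and the authors' adjusted p is the one error measure of a region. The lists reach 5 kb upstream of gene starts and hold called regions only, so more distant enhancers of these genes were not analysed here. Each sample is a pool of cells, in which a region open in more cells and one more open per cell cannot be told apart.

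The direct comparison asks where chromatin of the knockouts differs in level. Tie2 KO had regions higher than Vav KO at 8 of the 10 Sox genes (80%) and lower at 0, against 11.1% and 6.35% of protein-coding genes. Sox3 and Sox17 joined the 6 genes named above. In the authors' deposited table, their 10 regions had log2 fold changes from 0.66 to 2.02 with a median of 1.18, beside 1.16 over all 2873 higher regions. Both comparisons use the same Tie2 KO samples, so their values are set side by side and are not repeats of each other. In Vav KO against Tie2 WT, 0 of the 10 genes were paired with a higher and 0 with a lower region, where 5.29% and 2.59% of all protein-coding genes were. By position, 1 higher region of that comparison lay inside Sox8 under another gene's name, as described with SoxE. The absence of a line does not show that a gene's chromatin was alike in both groups.

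**Figure D1:**
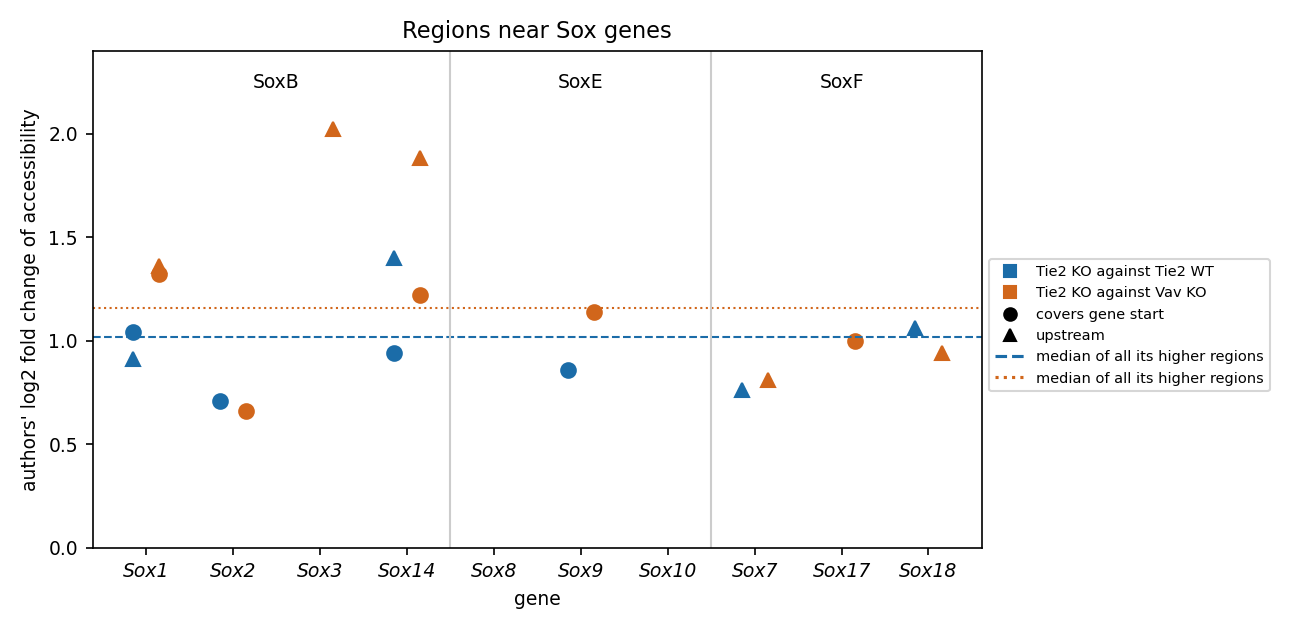
Authors' log2 fold change of accessibility (vertical axis) for every higher region paired with each of the 10 Sox genes (horizontal axis), as 1 point per region; circles cover the gene start, triangles lie upstream, and the dashed and dotted lines mark the medians of all higher regions, 1.02 for Tie2 KO against Tie2 WT and 1.16 for Tie2 KO against Vav KO. The highest points are the upstream regions of Sox3 (2.02) and Sox14 (1.88), Sox2 is the lowest, and Sox8 and Sox10 have no point.

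All 4 SoxB genes had a higher region in at least 1 comparison, and 3 of them did in Tie2 KO against Tie2 WT. Sox1, a marker of the early neural plate, had 1 region over its start and 1 upstream. The start region, chr8:12394602-12396600, reached from -917 to 1081 bp relative to the start and was 2.06-fold more accessible in Tie2 KO than in Tie2 WT (log2 fold change 1.04, adjusted p of 3.6e-07 by the authors' deposited table). Its upstream region, chr8:12391202-12392700, had a log2 fold change of 0.91 by the authors' deposited table. Against Vav KO, the matching log2 fold changes by the authors' deposited table were 1.32 over the start and 1.36 upstream. Sox1 was thus higher in Tie2 KO both over its start and at a region ending 2818 bp (against Tie2 WT) or 2718 bp (against Vav KO) before it.

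Sox14, which encodes a repressor of the SoxB2 branch and marks interneurons, showed the same layout with the larger change away from the start. Its start region, chr9:99875602-99877900, had a log2 fold change of 0.94 and an adjusted p of 9.1e-08 by the authors' deposited table, the smallest of the 8 regions against Tie2 WT. The adjoining upstream region, chr9:99878002-99879900, was 2.64-fold more accessible (log2 fold change 1.40 by the authors' deposited table). The pair stood against Vav KO at 1.22 and 1.88 by the authors' deposited table. Of the 2959 higher regions against Tie2 WT, 82.2% had a log2 fold change at or below that of the upstream region and 41.3% at or below that of the start region. Whether the 2 regions of a gene differ from each other was not tested, since the lists used here give no error of a fold change.

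Sox2, a factor of pluripotent cells and neural stem cells, had the smallest changes of the 8 genes with a region. Its region over the gene start, chr3:34648202-34650300, had a log2 fold change of 0.71 in Tie2 KO against Tie2 WT and an adjusted p of 0.000592 by the authors' deposited table. Against Vav KO the log2 fold change was 0.66, over the narrower region chr3:34649202-34650300, with an adjusted p of 7.44e-05 by the authors' deposited table. These values lay low in their lists, with 12.9% and 5.22% of higher regions at or below them. Sox2 sits inside the long noncoding RNA gene Sox2ot, which had no line of its own.

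Sox3, the X-linked SoxB gene, was called only against Vav KO among the comparisons made. Its region, chrX:60894502-60896200, ended 1071 bp before the gene start and was 4.06-fold more accessible in Tie2 KO (log2 fold change 2.02, adjusted p of 1.16e-05 by the authors' deposited table). That is the largest change of any Sox region, and 91.9% of the higher regions in that list were at or below it. The labels used here give no sex of the embryos. Regions on X made up 1.46% of the higher and 2.18% of the lower regions in this comparison, with median log2 fold changes of 1.28 and -1.27 by the authors' deposited table, and a part of sex in the Sox3 value was not tested.

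Of the SoxE genes, Sox9 alone had lines in the lists. Sox9, a regulator of cartilage, testis and crest cells, had the widest Sox region of all. The region chr11:112780702-112785300 of Tie2 KO against Tie2 WT spanned 4599 bp, from -1508 to 3090 bp relative to the start, with a log2 fold change of 0.86 and an adjusted p of 7.78e-07 by the authors' deposited table. When set against Vav KO the region began at the same base, ended at 112783100 and had a log2 fold change of 1.14 by the authors' deposited table. The authors paired both regions also with BC006965, a long noncoding RNA gene on the opposite strand, whose start they overlap by the lists' annotation. RefSeq places that gene at chr11:112663927-112711356, well before Sox9, so the pairing rests on the authors' gene models.

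Sox8, the close relative of Sox9 and Sox10, had no line under its own name, yet 2 regions of the lists lay inside the gene by position. For Tie2 KO against Tie2 WT this was chr17:25567502-25569600, from 1086 to 3184 bp after the gene start, with a log2 fold change of 0.96 and an adjusted p of 3.42e-06 by the authors' deposited table. In Vav KO against Tie2 WT the region chr17:25568202-25569400 within it had a log2 fold change of 0.81 and an adjusted p of 0.0102 by the authors' deposited table. Both were paired with 2810468N07Rik, a noncoding RNA gene on the opposite strand that starts just before Sox8. They entered the lists as upstream of that gene, and neither reached the Sox8 start. No region in Sox8 was called in Tie2 KO against Vav KO. Sox10, a regulator of crest and glia at chr15:79154913-79164490, had no region of any list inside it or within 5 kb of it on either side. Every region the lists paired with a Sox gene covered that gene's start or lay before it. Regions farther inside Sox10 or past its end may thus be missing from the lists.

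All 3 SoxF genes had a region higher in Tie2 KO than in Vav KO, and 2 of the 3 had one higher than in Tie2 WT. Sox7, an early factor of endothelium and of cells that turn from endothelium to blood, had a region just before its start. Against Tie2 WT this region, chr14:63941202-63943600, ended 105 bp before the start and had a log2 fold change of 0.76 and an adjusted p of 2.29e-07 by the authors' deposited table. Against Vav KO the region began at the same base, ended 805 bp before the start and had a log2 fold change of 0.81 by the authors' deposited table. Both regions of Sox7 lay wholly upstream of the gene.

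Sox18, a factor of lymphatic and blood vessel growth, had its region farther out. Against Tie2 WT it lay at chr2:181674102-181675300, 2461 bp upstream, with a log2 fold change of 1.06 and an adjusted p of 1.02e-05 by the authors' deposited table. With Vav KO as the other group the region lay at chr2:181674402-181675500 with a log2 fold change of 0.94, and its adjusted p of 0.0200 by the authors' deposited table was the largest of any Sox region. The authors paired this second region also with Tcea2, an elongation factor gene 4809 bp away on the other side. Sox17, a factor of endoderm, arterial endothelium and the fetal blood stem cell, was called against Vav KO alone. Its region over the start, chr1:4497102-4498100, was 2-fold more accessible in Tie2 KO (log2 fold change 1.00, adjusted p of 0.000357 by the authors' deposited table). Sox17 is the one SoxF gene whose region covered the gene start.

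**Figure D2:**
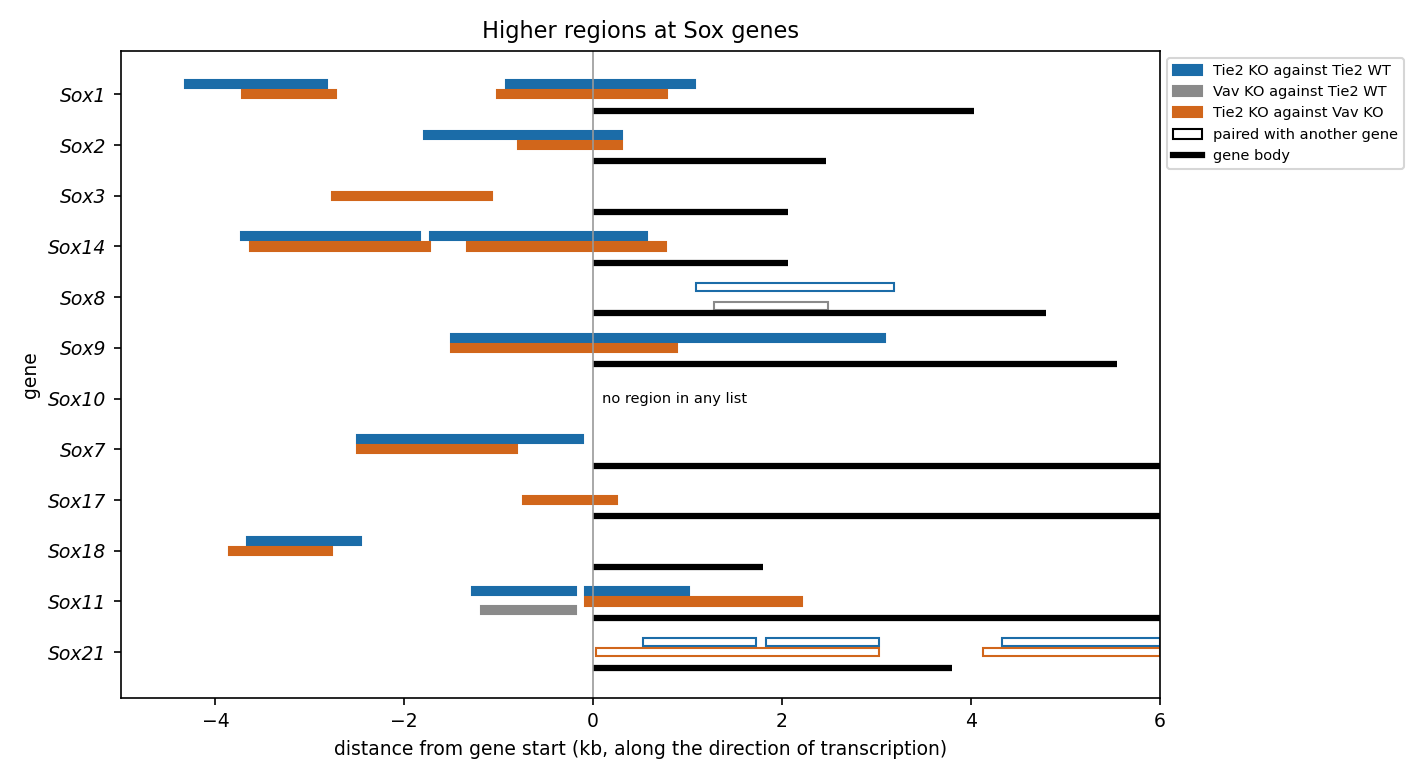
Position of higher regions (bars) along 12 Sox genes, as distance from the gene start in kb (horizontal axis), with the gene body in black and cut off at 6 kb; filled bars were paired with the gene by the authors and open bars with another gene. Regions of Sox1, Sox2, Sox14 and Sox9 cross the start in both comparisons with Tie2 KO, those of Sox3, Sox7 and Sox18 lie upstream, those in Sox8 lie inside the gene, and Sox21 has regions inside it and past its end.

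By the authors' pairing of regions with genes, 3 of 4 SoxB, 1 of 3 SoxE and 2 of 3 SoxF genes had a higher region against Tie2 WT. With regions inside the gene counted whatever their pairing, Sox8 joined Sox9, and 2 of 3 SoxE genes had one, as many as of SoxF. The share of all protein-coding genes counted in that way was not computed. The SoxB genes held 5 regions, 3 of them over a gene start, with log2 fold changes from 0.71 to 1.40 by the authors' deposited table. The SoxF genes held 2 regions, 0 of them over a start, with log2 fold changes of 0.76 and 1.06 by the authors' deposited table. Against Vav KO, the log2 fold changes of 6 SoxB regions ran from 0.66 to 2.02 and those of 3 SoxF regions from 0.81 to 1.00 by the authors' deposited table. The ranges of SoxB and SoxF overlap in both comparisons, and with 3 or 4 genes a subgroup no test of the difference was made. Sox regions against Tie2 WT had a median width of 2049 bp, against 1599 bp for all higher regions. Of these Sox regions 4 of 8 covered a start, and of all higher regions 55.6% did.

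Of the other 10 genes of the family, counting Sry, 1 was near a higher region in Tie2 KO against Tie2 WT, 1 in Vav KO against Tie2 WT and 2 in Tie2 KO against Vav KO, with 0 near a lower region in each. Beside 11.5%, 5.29% and 11.1% of protein-coding genes, the first of these counts is near the background share. Each of the counts rests on 1 or 2 genes. They follow the authors' pairing and leave out the regions inside Sox21 described below. Sox11, a SoxC factor of differentiating neurons, was the one Sox gene called by name in Vav KO. Its region just upstream of the start had a log2 fold change of 0.68 there and 0.77 in Tie2 KO, each against the same Tie2 WT samples, by the authors' deposited table. Over its start the log2 fold change was 0.74 in Tie2 KO against Tie2 WT and 0.84 against Vav KO by the authors' deposited table. Sox6, a SoxD factor that acts in red cells and cartilage, had a region of 3599 bp over its start as the lists place it, higher against Vav KO with a log2 fold change of 0.72 by the authors' deposited table. Sox4, Sox12, Sox5, Sox13, Sox15, Sox30, Sox21 and Sry had no line. By position, a lower region of Tie2 KO against Vav KO, chr11:69657302-69658300, lay past the end of Sox15, paired with Mir1934 and with a log2 fold change of -0.65 by the authors' deposited table.

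Sox21, the SoxB2 partner of Sox14, resembled Sox8 in that regions lay inside it under another gene's name. Against Tie2 WT, chr14:118235302-118236500 and chr14:118234002-118235200 had log2 fold changes of 0.60 and 0.78 by the authors' deposited table. Against Vav KO, chr14:118234002-118237000 covered most of the gene at a log2 fold change of 1.16, with an adjusted p of 1.23e-06 by the authors' deposited table. A further region past the end of the gene had log2 fold changes of 0.89 against Tie2 WT and 0.81 against Vav KO by the authors' deposited table. The authors paired all of them with LOC105245869, a noncoding RNA gene on the opposite strand. Sox1ot, a noncoding RNA gene that runs along the same strand through Sox1, had a region over its own start with a log2 fold change of 1.63 against Tie2 WT and 1.29 against Vav KO by the authors' deposited table. Against Tie2 WT, higher regions thus lay over the starts of both Sox1 and the transcript that spans it.

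Genes of the tissues in which SoxB, SoxE and SoxF factors act were counted in the same way. Of 18 neural progenitor genes, 12 lay near a higher region in Tie2 KO against Tie2 WT and 16 in Tie2 KO against Vav KO, with 0 lower, beside the 11.5% and 11.1% of protein-coding genes given above. Of 18 neural crest genes the counts were 11 and 8, again with 0 lower. Of 22 endothelial genes 9 and 6 lay near a higher region, with 2 and 1 near a lower one. Their lower shares were 9.09% and 4.55%, beside 2.51% and 6.35% of protein-coding genes. Tek, whose sequence drives the Tie2-Cre transgene, was among the endothelial genes near a higher region in both comparisons. Of 15 partners and regulators of Sox factors 5 and 5 were higher and 0 lower. That list shares Pax6 and Pou3f2 with the neural list and Notch1 with the endothelial list, so these counts are not separate. Of 15 erythro-myeloid progenitor genes 0 were higher and 0 lower against Tie2 WT, and 2 were higher and 2 lower against Vav KO. The latter are 13.3% each, beside 11.1% of protein-coding genes for higher and 6.35% for lower regions. In Vav KO against Tie2 WT the higher and lower counts were 2 and 2 for neural, 1 and 1 for crest, 1 and 0 for endothelial, 1 and 1 for progenitor genes and 0 and 2 for partners. The higher shares of crest (5.56%), endothelial (4.55%) and progenitor genes (6.67%) there were near the 5.29% of protein-coding genes. That of neural genes was 11.1%. Lower shares there were 11.1% for neural, 5.56% for crest, 6.67% for progenitor genes and 13.3% for partners, beside 2.59% of protein-coding genes. Each of these lower shares rests on 1 or 2 genes. Against Tie2 WT, the share of genes near a higher region in Tie2 KO was 75% for SoxB beside 66.7% of neural genes, 33.3% for SoxE beside 61.1% of crest genes, and 66.7% for SoxF beside 40.9% of endothelial genes. These Sox shares follow the authors' pairing and rest on 3 or 4 genes each. The SoxE share leaves out the region inside Sox8, which was paired with another gene. The lists hold changed regions only, so they cannot show whether the sorted cells carried open chromatin at their defining markers, and a part of other cell types in the Sox counts was not tested.

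**Figure D3:**
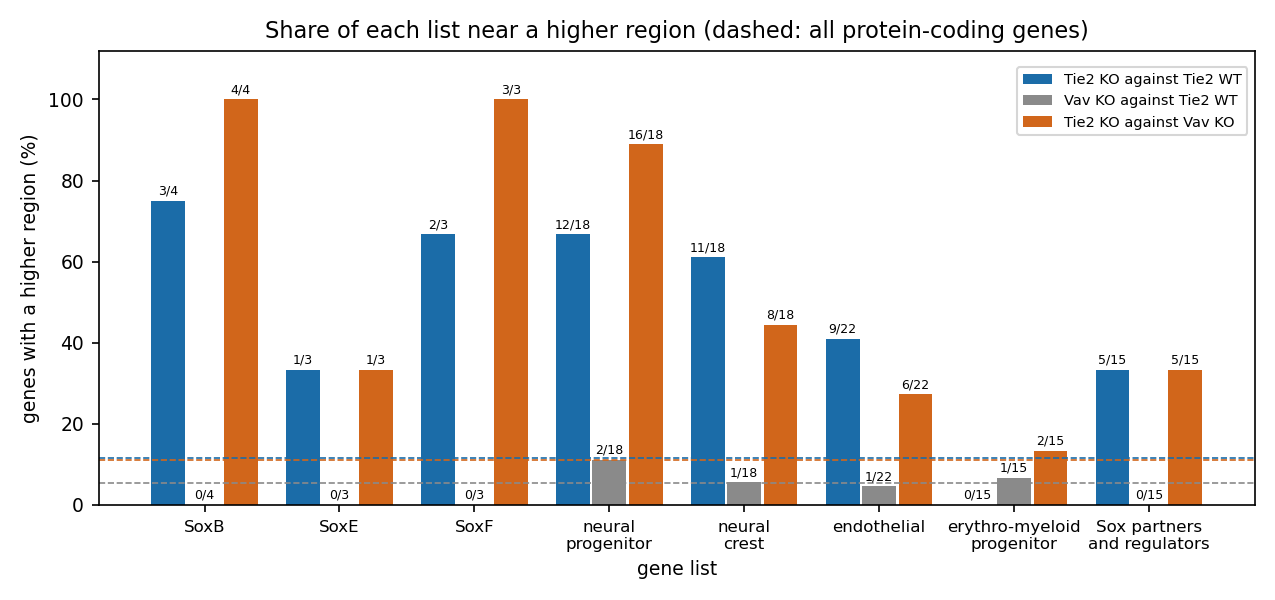
Share of genes with a higher region (vertical axis, percent, with the count above each bar) in the 3 Sox subgroups and 5 lists of other genes (horizontal axis), for the 3 comparisons; dashed lines give the share of all protein-coding genes. Bars of Tie2 KO reach 3 of 4 and 4 of 4 for SoxB, while every Sox bar of Vav KO against Tie2 WT is at 0.

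The members of these lists with the largest changes were named by size. Each value is that of the gene's most changed region, which need not cover the gene start. Against Tie2 WT, the distance to the start was 0 bp for Tek, 1894 bp for Snai1 and 4565 bp for Pax3 in Tie2 KO. Against Tie2 WT, the authors' deposited table gives log2 fold changes in Tie2 KO of 1.42 at Otx2, a forebrain factor, and 1.40 at Msi1, an RNA-binding protein of neural stem cells. For crest genes they were 1.96 at Snai1, a repressor of epithelial genes, and 1.71 at Pax3 by the authors' deposited table. Endothelial genes had 2.90 at Tek, the gene of the Tie2 receptor, and 1.71 at Hey2, a Notch target, and partners 1.64 at Lef1, a Wnt effector, and 1.20 at Pou3f2 by the authors' deposited table. Against Vav KO, large changes by the authors' deposited table were 2.23 at Pou3f3, 1.74 at Otx2 and, among crest genes, 1.57 at Tfap2a. The authors' deposited table gives 2.58 at Pou5f1, the octamer factor that pairs with Sox2 in pluripotent cells, 2.20 at Lef1, 2.92 at Tek and -2.03 at Lyve1, a lymphatic receptor, for partners and endothelial genes. Progenitor genes against Vav KO were led by Gfi1 at 1.42 and Csf1r at -1.33 by the authors' deposited table. In Vav KO against Tie2 WT the authors' deposited table gives 1.21 at Nkx2-2, -0.94 at Pax6, -1.87 at Foxd3, 1.69 at Snai1, 1.40 at Gja4, -1.55 at Gata2, 0.92 at Csf1r and -1.01 at Nr5a1.

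The Sox promoters shown above were rich in CpG. Sox1 held 37 CpG in its 300-base window, Sox2 27, Sox14 26 and Sox8 21, against a median of 13 over 21263 promoters of protein-coding genes. Of those promoters 93.5% had as many CpG as Sox1 or fewer, 81.2% as Sox2, 79.3% as Sox14 and 68.7% as Sox8. The ratio of observed to expected CpG, which corrects for base composition, was 1.07, 0.819, 0.82 and 0.647 in the same order, and the median of all 32851 promoters was 0.384. That wider set also holds promoters of genes that are not protein-coding, and its median count was 7 CpG, lower than the 13 above. The median was 17 CpG both for protein-coding genes with a higher and for those with a lower region in Tie2 KO against Tie2 WT. Of 2 short cores that HMG boxes recognise, searched on both strands, ACAAT was in 0 of the 4 windows and in 31.0% of all promoters, and ACAAAG was in 1 of the 4, that of Sox2, and in 18.7% of all promoters. The cores differ in their last bases, so no match is counted under both. GC content of the 4 windows ran from 66.0% to 70.7%, beside a median of 52.7% over all promoters. A part of base composition in the counts of these cores was not tested.

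**Figure D4:**
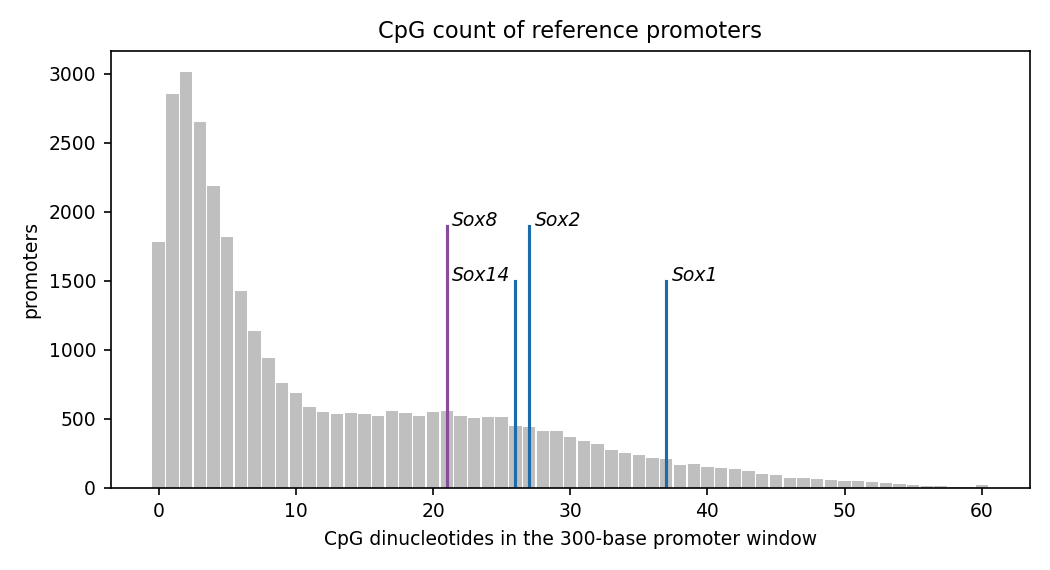
Number of reference promoters (vertical axis) by CpG dinucleotides in a 300-base window (horizontal axis), with 60 or more in the last bar and a line at each of the 4 Sox genes with a window. Sox8, Sox14, Sox2 and Sox1 stand at 21, 26, 27 and 37, above the median of 7 of all promoters and that of 13 of protein-coding genes.

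Ezh2, the deleted gene, had 0 lines in the lists, so the deletion was not checked here. Regions over the genes whose sequence drives the transgenes were called: Tek (Tie2) was higher in Tie2 KO by a log2 fold change of 2.90 over 12899 bp, and Vav1 higher in Vav KO by 0.81, each against Tie2 WT by the authors' deposited table. Whether reads from the transgenes entered these regions, and through Tek the endothelial counts, was not tested.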

How the data were processed

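ATAC-seq lists covered 5 Tie2 KO, 3 Vav KO and 3 Tie2 WT samples, and group abbreviations in the names of the 6 lists were read as these groups. The submitters' processing notes list HOMER 4.10, MACS2 2.1.2, Picard, SAMtools 1.3.1, Bowtie2, FastQC and the build mm10, without roles. Not given in the sources used here are the Tn5 shift, the handling of duplicates, the scaling and the test of regions. Each deposited line carries, per the file headers, the authors' log2 fold change and their adjusted p-value of a region, with other measures in bp, the width and the distance to the gene start. Depth per sample is unknown. Labels do not say whether samples are separate embryos, so the authors' p-values may measure technical spread.

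Members and lists were chosen with earlier results of these data known. Lines were taken by symbol and checked by gene identifier, of 10679 lines 10669 matching a RefSeq gene table of GRCm38.p6. A region covers a gene start where it holds that base. By position, regions inside a gene or within 5000 bp of it were taken. Counts stand beside those of all 21900 protein-coding genes, and no test was computed. All 10 members, other Sox genes with a line, genes sharing a region and 2 genes of largest change per list and comparison were named, except 1 that is not reported here. Genes with the same calls in all comparisons were not counted, since comparisons share samples. Sequence features used RefSeq promoter windows of 300 bases. Counting was tested on simulated data. Python 3.11.15, pandas 2.3.3 and matplotlib 3.10.9 were used.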

Additional observations from a re-analysis of the deposited data

Results flagged for a closer look

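The authors' direct comparison of the knockouts called a difference in level at 8 Sox genes. Whether the effect of deletion differs was not tested, since no list sets Vav KO against its own control. The largest log2 fold change of each gene in Tie2 KO against Vav KO by the authors' deposited table was 1.36 at Sox1, 0.66 at Sox2, 2.02 at Sox3, 1.88 at Sox14, 1.14 at Sox9, 0.81 at Sox7, 1.00 at Sox17 and 0.94 at Sox18. All 8 were higher in Tie2 KO. The knockouts differ in Cre line as well, so line and deletion cannot be told apart.

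Signal also lay in lines under other genes' names. Inside Sox8, regions paired with 2810468N07Rik were higher in Tie2 KO and in Vav KO against Tie2 WT, with log2 fold changes of 0.96 and 0.81 by the authors' deposited table. Inside Sox21, regions paired with LOC105245869 had log2 fold changes of 0.60 and 0.78 in Tie2 KO against Tie2 WT and 1.16 against Vav KO by the authors' deposited table.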

How the results depend on the processing

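With an absolute log2 fold change of at least 1, the Sox genes near a higher region fell from 6 to 3 in Tie2 KO against Tie2 WT (without Sox2, Sox7 and Sox9) and from 8 to 5 in Tie2 KO against Vav KO (without Sox2, Sox7 and Sox18). With regions over a gene start only, the second count was also 5 (without Sox3, Sox7 and Sox18) and the first was 4. Adding regions inside the gene under any gene's name, a choice made after seeing the data, raised the count of Vav KO against Tie2 WT from 0 to 1 through Sox8, and that of Tie2 KO against Tie2 WT from 6 to 7. An adjusted p of 0.01 or lower left 6 and 7, and regions paired with 1 gene left 5 and 6. The 3 counts near lower regions were 0 under each of these settings. Shares of all protein-coding genes were not computed under these settings, so the changed counts have no background beside them. Regions of 6 members overlapped between both comparisons with Tie2 KO, by 1 bp or by 0.5 of the shorter region. Taking the region closest to the start changed the value of Sox14 to 0.94 and 1.22 and of Sox1 against Vav KO to 1.32. GC content of the 4 promoter windows moved by leaving out the 50 bases after the start, most at Sox2, going from 66.3% to 72.0%. No sample could be left out, since the lists hold no value per sample. No paired analysis was possible because the lists give no sample columns. Depth is unknown, and a gene without a line was not called, which is no measure of its change.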
